A study of Mus musculus with 2 samples.

Results

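The 106 count rows that carry the LINE-1 class in their RepBase name were followed through the testis cells of 2 mice. They are 106 of the 51868 rows of the count matrix and 106 of its 1182 repeat rows, and the rule uses the name alone and no measured value. Both mice were wild-type C57Bl/6J Crl males of 8 weeks, with no allele or treatment that differed between them, and each gave 1 library of dissociated whole testis. According to the study the mice were littermates, and the cells were passed through a strainer to keep somatic cells few. The study followed gene expression along spermatogenesis in single cells, and there was no second genotype or treatment to compare with. The unit was the UMI, a barcode that marks 1 captured RNA molecule, and 3′ ends of RNA were read. Mouse 1 had 1237 cells and 27450497 UMIs, mouse 2 had 1315 cells and 30302332 UMIs, and no cell barcode was shared between them.

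LINE-1 elements are retrotransposons, sequences that copy themselves through an RNA intermediate and their own reverse transcriptase. A full-length mouse element has a promoter in its 5′ end, often built of short repeats called monomers, then ORF1, which encodes an RNA-binding protein, and ORF2, which encodes the endonuclease and reverse transcriptase. The young L1MdTf, L1MdA and L1MdGf families hold the copies that can still move, whereas L1MdF, L1MdV and Lx are older and their copies are mostly broken. In male germ cells these elements are held down by DNA methylation, by repressive chromatin and by piRNAs, small RNAs bound by PIWI proteins.

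Each row stands for 1 consensus sequence and not for a place in the genome, so that no row has a chromosome, a start or an end. The reference was the GRCm38 genome with its repeats masked, to which the consensus sequences were added, so that reads from all copies of a family were counted together. Reads from a LINE-1 piece inside the transcript of another gene also go to these rows, and both sources cannot be told apart here. According to the study, the sequences were added because transposon reads that map to many places would otherwise be excluded. Reads that fit several near-identical rows, such as L1MdTf_I, L1MdTf_II and L1MdTf_III, may therefore be missing. The split among such rows is uncertain. The lengths of the consensus sequences were not used here, and the order of the rows is therefore an order of UMIs and not of transcript levels.

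Of the 106 rows, 73 had at least 1 UMI, 57 had at least 100 and 48 had at least 500. Nearly all UMIs lay on rows whose RepBase name gives Mus or Muridae. The 53 rows named for the genus Mus held 164118 UMIs, or 86.0% of all LINE-1 UMIs, and 52 of them were detected. The 19 rows named for the family Muridae were all detected, with 26550 UMIs or 13.9%. The 31 rows named for Eutheria or Mammalia, the oldest groups, had 7 UMIs together, all on 1 row. Some of them, such as L1M1_5, are named for the 5′ part of an element, whereas 3′ ends of RNA were read. Others, such as L1ME3C_3end, are named for the 3′ end and also had 0 UMIs. How well reads of old copies align to these consensus sequences was not tested. The rodent row had 88 UMIs and the 2 rows named for Sciurognathi had 0 UMIs among all 57752829, which allows up to 3 UMIs for each.

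In all, 190763 UMIs fell on LINE-1 rows, or 0.330% of the UMIs of the matrix. As CPM, the UMIs of a row divided by all UMIs and scaled to 1000000, the level was 3114 in mouse 1 (exact 95% Poisson interval 3093 to 3135) and 3474 in mouse 2 (3453 to 3495), with a mean of 3294 ± 255 (SD, n = 2). Intervals of this kind cover counting error only. LINE-1 took more UMIs than the SINE and ERV classes, the only ones compared here, with 1705 CPM on the 51 SINE rows and 1479, 351 and 308 CPM on the ERV2, ERV3 and ERV1 rows over all cells. All 1182 repeat rows held 818383 UMIs. A cell had a median of 67 LINE-1 UMIs, the highest cell had 898, and 114 of the 2552 cells had none.

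To place LINE-1 along spermatogenesis, the cells were clustered without any repeat row and without the genes that act on LINE-1, so that neither group of rows decided the clusters. The clusters were named from marker genes, and a name stands for cells like that type. The germ line formed 6 large clusters. These were early spermatocyte-like cells (164), pachytene or later spermatocyte-like cells (527), 2 clusters of round spermatid-like cells (688 and 450) and 2 clusters of elongating or condensing spermatid-like cells (198 and 507). The round clusters are called Ssxb-high and Ssxb-low after the Ssxb genes that lead the first of them. This Ssxb-high cluster passed on 4 of 16 round spermatid markers, and its marker score was 0.596 for round spermatids and 0.434 for pachytene or later spermatocytes. Ssxb1, Ssxb2 and Ssxb3 are themselves among the 16 markers and were 3 of its 10 leading genes. In Leiden clusters, built from a graph of neighbouring cells, a cluster of 146 cells led by Ssxb10 and Ssxb5 was named pachytene or later. Another Leiden cluster, of 119 cells with Ssxb5 among its 10 leading genes, was also named pachytene or later. The remaining Leiden clusters with Ssxb genes among their 10 leading genes were named round spermatid. The other pair is called RNA-rich and RNA-poor after median counts of 23614 and 11675 UMIs per cell. Below, the names are shortened to early, pachytene, round and elongating cells, where pachytene stands for pachytene or later and elongating for elongating or condensing. Defining somatic markers were found in 7 Sertoli-like and 5 Leydig-like cells, and 6 cells were spermatogonium-like.

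Among the large germ cell clusters, the share of LINE-1 UMIs was highest in early cells and lower in pachytene cells. It was higher again in the Ssxb-high round cells, and lowest in the RNA-poor elongating cells. Early cells had 5470 CPM in mouse 1 and 6359 CPM in mouse 2. Pachytene cells had 3275 and 3392 CPM, which was 1.67 and 1.87 times lower. The Ssxb-high cells had 4312 and 4408 CPM and lay above the pachytene cells in both mice. When the cells of each cluster and mouse were split at their median depth, this order held in 3 of 4 comparisons. In the shallower cells of mouse 1 it turned around, with 4846 CPM in the pachytene and 4607 CPM in the Ssxb-high cells. The shallower cells had the higher LINE-1 CPM in all 12 cluster and mouse pairs, and the part of depth in the levels was not tested. The Ssxb-low cells had 3384 and 3535 CPM, a little above the pachytene cells of the same mouse. The RNA-rich cells had 1940 and 1865 CPM. The RNA-poor cells had 231 and 226 CPM, 8.41 and 8.24 times lower than the RNA-rich cells of the same mouse. Outside these clusters, the Sertoli-like cells had 5485 CPM in mouse 1 (6 cells) and 13826 CPM in mouse 2 (1 cell). This was near the early cells in mouse 1 and above them in mouse 2. Leydig-like cells had 4704 (1 cell) and 2652 CPM (4 cells), and spermatogonium-like cells 2989 (2 cells) and 3800 CPM (4 cells). Neighbouring clusters did not overlap between the mice except for the pachytene and Ssxb-low clusters, whose values of 3275, 3392, 3384 and 3535 CPM interleaved. With 2 mice a permutation test of such a single value cannot go below an exact two-sided p of 0.333, and these levels are given without a test.

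**Figure D1:**
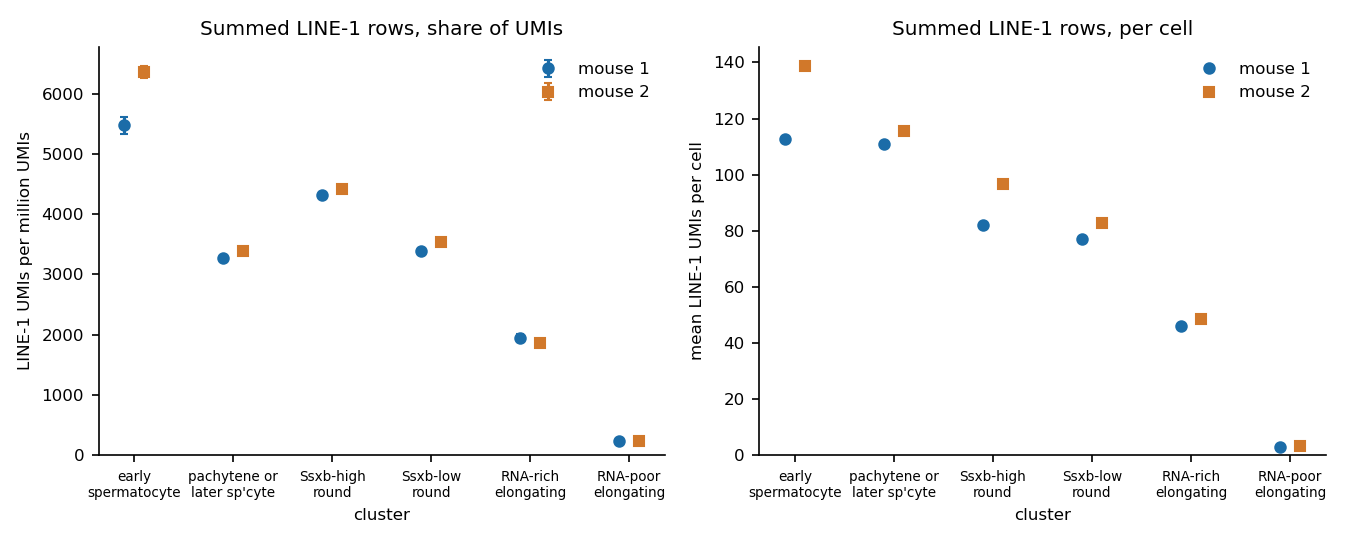
UMIs on all LINE-1 rows in the 6 germ cell clusters, as CPM (left, with exact 95% Poisson intervals) and as mean UMIs per cell (right), with 1 point per mouse. The share is lower in the pachytene than in the Ssxb-high round cluster (3275 and 3392 against 4312 and 4408 CPM). The mean count per cell is higher in the pachytene cluster (111 and 115 against 82.0 and 96.7 UMIs). The medians per cell, not shown, are 77.5 and 71 against 79.5 and 85 UMIs.

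The rise from pachytene to round cells was 0.26 ± 0.00 (SD, n = 2) on the log2 scale for the share of summed UMIs. It turned around for the mean count per cell but not for the median. The median per cell was 77.5 and 71 LINE-1 UMIs in pachytene and 78 and 79 in round cells of mouse 1 and mouse 2. With every cell thinned to 5000 UMIs the rise was 0.12 ± 0.17. Mouse 1 then had 20.11 LINE-1 UMIs per cell in pachytene and 20.14 in round cells, whereas mouse 2 had 17.2 and 20.3, so that mouse 1 showed no rise. As a mean over cells the rise was 0.11 ± 0.16. The thinned cells of the Ssxb-high cluster alone had 22.0 and 21.7 LINE-1 UMIs, above the pachytene cells of the same mouse. For the share of summed UMIs it was 0.05 on the log2 scale when the Ssxb-high cluster was left out of the round cells. Early cells held a mean of 113 and 139 LINE-1 UMIs per cell in mouse 1 and mouse 2, and pachytene cells held 111 and 115. In mouse 1 these clusters were therefore nearly equal in the mean per cell. The medians of early cells were higher, at 97 and 127 against 77.5 and 71 in pachytene cells. The mean count per cell was 82.0 and 96.7 in the Ssxb-high and 76.9 and 82.7 in the Ssxb-low cluster. It was 45.9 and 48.3 in the RNA-rich and 2.91 and 3.08 in the RNA-poor cluster. Fewer LINE-1 molecules in a cell and a smaller captured share of its RNA cannot be told apart by these counts. Between the RNA-rich and the RNA-poor cluster the share and the mean per cell went the same way, by 15.8 and 15.7 times for the mean per cell.

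A LINE-1 UMI was found in nearly every cell before elongation. The share of cells with at least 1 was 100% in the early cells of both mice and 99.7% and 99.5% in the pachytene cells of mouse 1 and mouse 2. The RNA-rich elongating cluster was still at 100% and 99.1%, and the RNA-poor cluster at 79.3% and 78.4%. When every cell was thinned to 5000 UMIs, they were at 97.7% and 96.4% and at 54.6% and 53.3%. The spermatocyte and round spermatid clusters were then at 98.7% to 100%. Free RNA in the droplets adds UMIs to all cells. No cell type was taken here as free of LINE-1 RNA. The 226 and 231 CPM of the RNA-poor cluster are the lowest levels found, and the part of free RNA in them was not tested.

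Cells of 1 cluster differed by more than counting error. The coefficient of variation of LINE-1 CPM over the cells of a cluster and mouse was 32.6% to 234%, where counting alone would give 9.56% to 61.4%. A group of 58 cells, or 2.27% of all, had more than 10000 LINE-1 CPM and held 5.51% of the LINE-1 UMIs, a limit set after the values had been seen. Of these, 33 were pachytene (26 in mouse 1, 7 in mouse 2) and 13 were early (3 and 10). Their median was 10418 UMIs per cell against 18775 in the other cells. In the pachytene cluster, where most of them lay, they had less ribosomal protein mRNA than the other cells of the same mouse, with medians of 2.33% against 4.79% of UMIs in mouse 1 and 1.59% against 4.48% in mouse 2. Their mitochondrial RNA was higher there (1.21% against 0.185% and 1.84% against 0.181%), as was the nuclear RNA Malat1 (2662 against 423 CPM and 3570 against 321 CPM). In the early cluster the mitochondrial RNA was 3.58% against 0.701% in mouse 1 and 1.53% against 0.607% in mouse 2. Malat1 was at 15554 against 5652 CPM and 13888 against 4879 CPM. The ribosomal protein mRNA was 3.10% against 8.14% in mouse 1, with 3 cells above the limit. In mouse 2 it was nearly equal at 7.43% against 7.63%. The part of depth and RNA quality in their LINE-1 level was not tested. Without them the log2 ratio of round to pachytene CPM was 0.37 in place of 0.26, and without the third of cells with the least ribosomal protein mRNA in each cluster and mouse it was also 0.37.

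The 10 rows with the most UMIs held 87748 UMIs, or 46.0% of all LINE-1 UMIs. L1MdTf_III, a young family row, led with 14659 UMIs, and L1MdF_I and L1MdFanc_I followed with 11306 and 10757. The next were L1_Mur1_orf2, the ORF2 part of an old murid element, with 9472 UMIs and the young L1MdGf_I with 9462. L1MdF_III, L1MdV_III, L1MdFanc_II, L1MdA_VII and L1MdF_II had 7375, 7294, 6146, 5690 and 5587 UMIs. Of the 10 rows, 5 thus belonged to the L1MdF and L1MdFanc group.

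The leading rows did not all follow the summed level. L1MdTf_III had 385 and 444 CPM in the early cells of mouse 1 and mouse 2, 203 and 241 CPM in the pachytene cluster, and 393 and 410 CPM in the Ssxb-high cluster. Its early and Ssxb-high values overlapped. It then had 263 and 279 CPM in the Ssxb-low, 102 and 111 CPM in the RNA-rich and 16.4 and 15.5 CPM in the RNA-poor cluster. L1MdF_I was highest in the Ssxb-high cluster in both mice, at 302 and 283 CPM against 264 and 277 CPM in the early and 168 and 169 CPM in the pachytene cluster. The early value of mouse 2 rested on 672 UMIs, and its small difference to the Ssxb-high value was not tested. L1MdV_III showed no second peak, with 269 and 276 CPM in the early, 159 and 167 CPM in the pachytene, and 142 and 137 CPM in the Ssxb-high cluster. L1MdGf_I stood between these, with 338 and 345 CPM in the early, 178 and 177 CPM in the pachytene and 194 and 195 CPM in the Ssxb-high cluster. Of the 48 rows with at least 500 UMIs, 35 were highest in the early cells in both mice, 2 were highest in the Ssxb-high cluster in both, and 11 were highest in different clusters in the mice. Counting error was not considered in this ranking of CPM values over the germ cell clusters. The same ranking was not made for the other rows of the matrix, so these counts have no background to compare with.

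**Figure D2:**
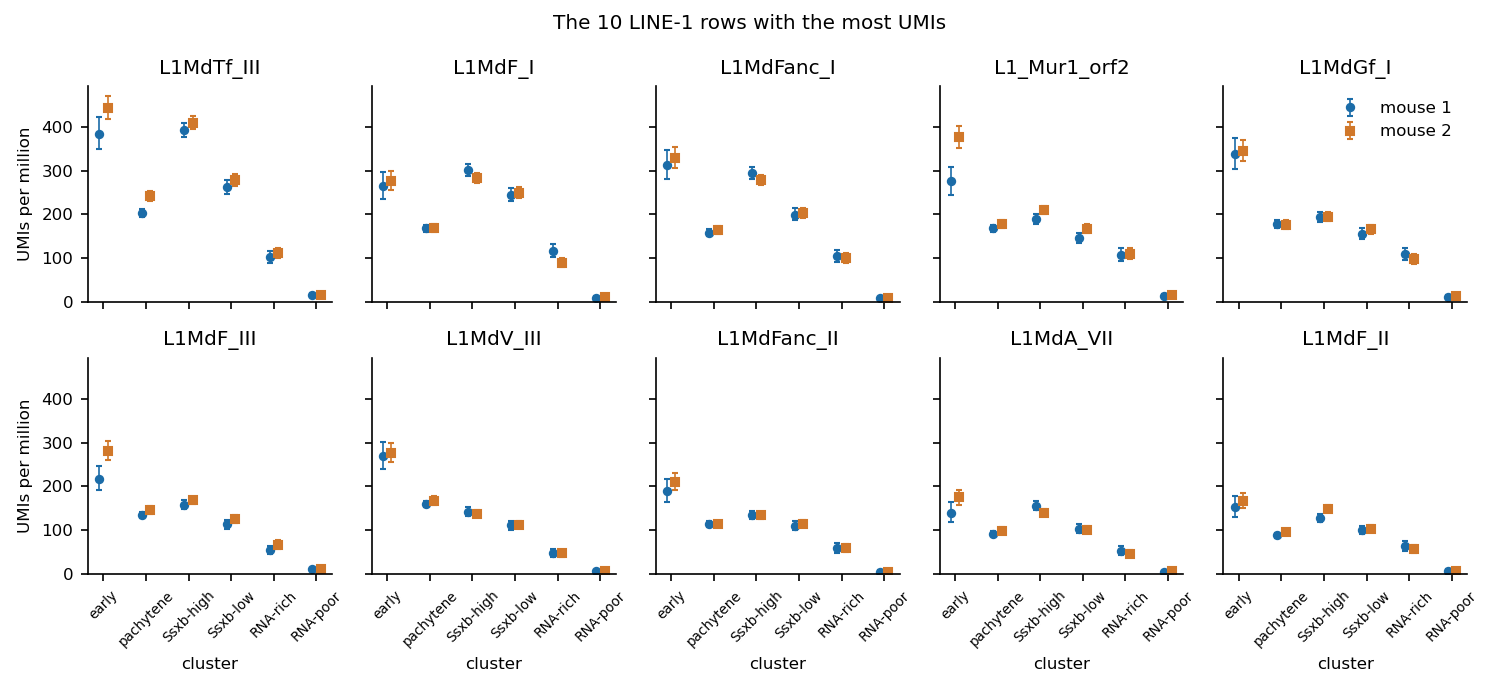
The 10 LINE-1 rows with the most UMIs in the 6 germ cell clusters, in CPM with exact 95% Poisson intervals and 1 point per mouse. L1MdTf_III is as high in the Ssxb-high cluster (393 and 410 CPM) as in the early cluster (385 and 444 CPM), whereas L1MdV_III is lower there (142 and 137 against 269 and 276 CPM).

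Summed by family name, the height of the second peak differed among the families more than between the mice. The 8 L1MdF and L1MdFanc rows held 49201 UMIs or 25.8% of the LINE-1 UMIs, and the Lx rows, the L1MdA rows and the L1MdTf rows held 15.3%, 14.2% and 8.54%. From the pachytene to the Ssxb-high cluster, the mean log2 CPM ratio was 0.84 ± 0.10 (SD, n = 2) for L1MdTf, 0.76 ± 0.05 for L1MdN and 0.59 ± 0.03 for L1MdF and L1MdFanc. It was 0.46 ± 0.05 for L1MdA and 0.48 ± 0.15 for L1MdMus. The ratios were smaller for L1MdGf (0.25 ± 0.00), L1MdV (0.14 ± 0.03) and Lx (0.11 ± 0.02). In these sums the young L1MdGf lay below the older L1MdF, but rows within a family differed too. L1MdGf_I, with 9462 of the 11066 UMIs of its family, had 178 and 177 CPM in the pachytene and 194 and 195 CPM in the Ssxb-high cluster. L1MdGf_II had 24.6 and 22.8, then 47.8 and 43.0 CPM. Whether age orders the ratios was not tested. The first 3 of these families reached nearly the level of early cells again, with L1MdTf at 440 and 484 CPM in the early and 446 and 447 CPM in the Ssxb-high cluster. L1MdMus and L1MdA came next, with mean log2 ratios to early cells of -0.30 and -0.46. Lx had 862 and 1012 CPM in the early and 584 and 603 CPM in the Ssxb-high cluster. The L1MdTf rows took 8.04% and 7.62% of the LINE-1 UMIs in the early cluster and 10.3% and 10.1% in the Ssxb-high cluster, whereas the Lx rows took 15.8% and 15.9% in the early and 13.6% and 13.7% in the Ssxb-high cluster. In the RNA-poor cluster the Lx rows took 23.2% and 22.9%.

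**Figure D3:**
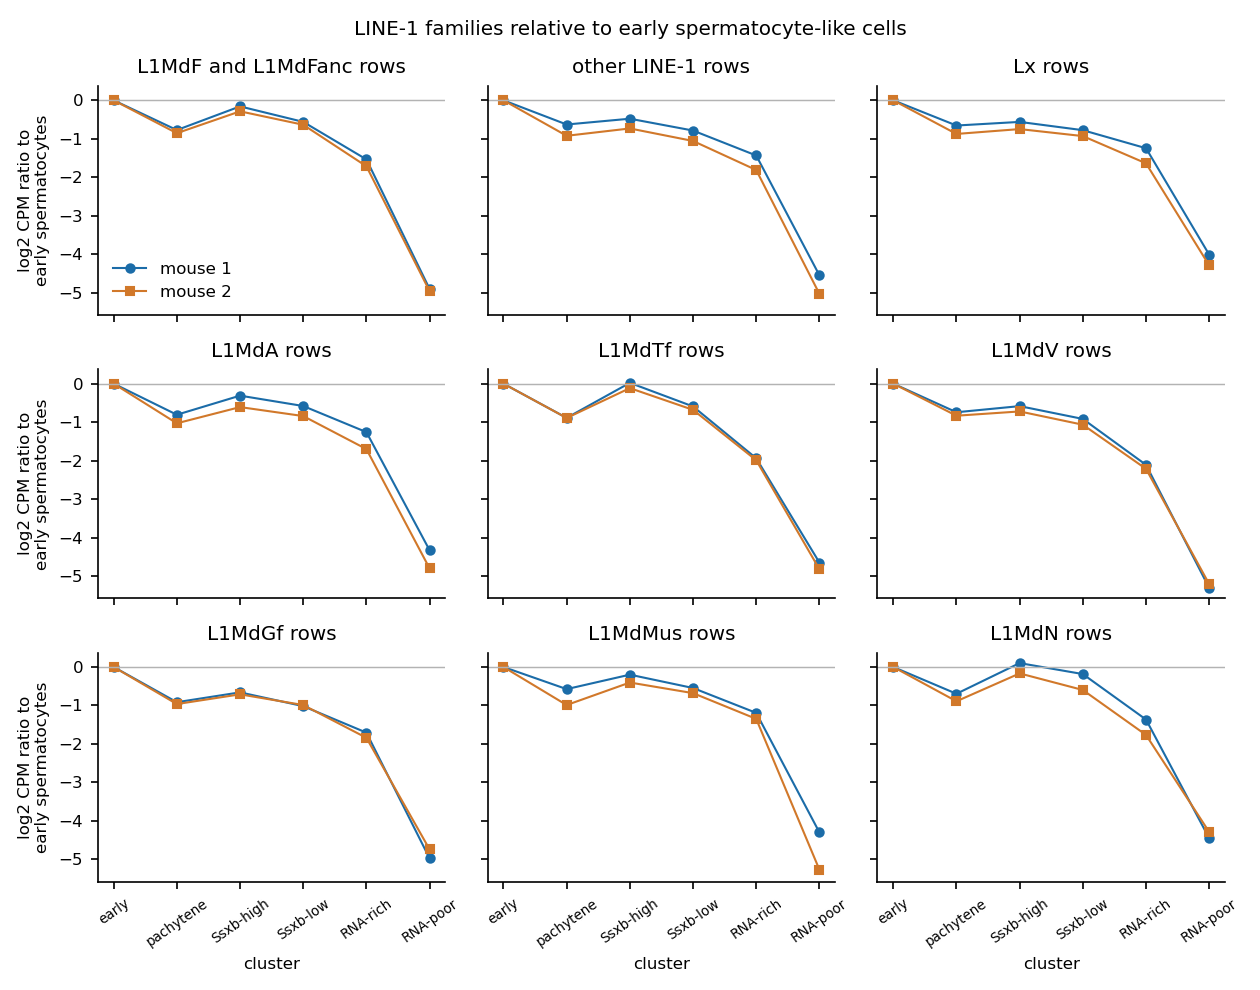
CPM of each LINE-1 family relative to early cells of the same mouse, on a log2 scale, in the 6 germ cell clusters with 1 line per mouse. L1MdTf, L1MdN and L1MdF return to near 0 in the Ssxb-high cluster (means of -0.05, -0.03 and -0.22), whereas L1MdGf, L1MdV and Lx are near -0.7 (means of -0.68, -0.65 and -0.65). L1MdMus, L1MdA and the other rows lie between (means of -0.30, -0.46 and -0.60). All families are lowest in the RNA-poor cluster.

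To test single rows, UMIs were summed per mouse over 4 classes, with both round and both elongating or condensing clusters joined, and compared along 3 steps with edgeR's quasi-likelihood test on TMM-scaled counts, adjusted over all 15079 rows tested by Benjamini-Hochberg at 0.05. Of the 73 detected rows, 61 passed the filter on low counts, and the 12 others held few UMIs and stand with the rest in a total of 210 UMIs that was not tested. The fold changes are relative to the TMM scaling and differ from ratios of CPM. All classes come from the same 2 animals.

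From early to pachytene cells, 30 of 61 rows fell and 0 rose. At an unadjusted p under 0.05 edgeR gave 37 lower and 0 higher, and DESeq2, another test of counts, called 38 lower and 0 higher. The count was 15 without the filter on low counts and 13 with Leiden clusters, which come from a graph of neighbouring cells in place of K-means. The Leiden early group held a cluster of 118 cells with marker scores of 1.66 for early spermatocytes and 1.06 for Sertoli cells. The Sertoli markers Clu and Ctsl were among its leading genes. No Leiden cluster was named Sertoli, Leydig or spermatogonium, and the part of such cells in the lower count was not tested. Among all rows tested, 21.7% were called lower and 26.7% higher, and the LINE-1 rows had a median log2 fold change of -0.46 against 0.08 for all rows. The largest falls among rows with at least 100 UMIs were in 2 Lx rows and in L1MdA_II, a young family row. L1MdA_II had 155 and 204 CPM in early cells and 73.2 and 77.7 CPM in the later ones, and it fell by 0.90 on the log2 scale (SE 0.18, edgeR adjusted p = 0.00026). The 3′ end row Lx2A1_3end had 18.3 and 29.3 CPM, then 8.62 and 11.3 CPM (log2 fold change -0.99, SE 0.27, edgeR adjusted p = 0.0041). These values did not overlap. Lx2A_3end, with only 169 UMIs in all, had 3.66 and 15.3 CPM, then 4.31 and 2.95 CPM, and the mice overlapped although the row passed the test (log2 fold change -1.24, SE 0.45, edgeR adjusted p = 0.028, DESeq2 adjusted p = 0.20). Of the 10 rows with the most UMIs, 8 fell, and L1MdF_I and L1MdA_VII did not pass (log2 fold change -0.31 and -0.37, edgeR adjusted p = 0.087 and 0.069). The calls of L1MdF_II, L1MdF_III, L1MdFanc_II and L1MdV_III were lost both without the filter and with Leiden clusters, and those of L1MdFanc_I and L1_Mur1_orf2 with Leiden clusters.

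From pachytene to round cells, 25 of 61 rows rose and 1 fell. Among all rows 36.6% were called higher and 33.0% lower, so that the share of LINE-1 rows that rose was near that of all rows and the share that fell was below it. The median log2 fold change was 0.34 for LINE-1 rows and -0.01 for all rows. LX4, an Lx row, had 7.28 and 9.53 CPM in the spermatocytes and 15.1 and 18.8 CPM in the spermatids (log2 fold change 1.24, SE 0.21, edgeR adjusted p = 3e-05). L1VL1_5end, the 5′ end of an element of the L1VL group, had 5.55 and 4.96 CPM, then 9.61 and 9.73 CPM (log2 fold change 1.07, SE 0.23, edgeR adjusted p = 0.00038). Both rows were higher in both mice without overlap, and so was Lx2B2_3end at 10.7 and 9.79, then 18.8 and 15.5 CPM (log2 fold change 0.93, SE 0.22, edgeR adjusted p = 0.00066). The 1 row that fell, Lx2B_3end, had 27.9 and 27.2 CPM, then 15.1 and 17.4 CPM (log2 fold change -0.55, SE 0.17, edgeR adjusted p = 0.0070), and with DESeq2 it did not pass (adjusted p = 0.055). Among the leading rows L1MdF_I, L1MdTf_III and L1MdFanc_I rose by log2 fold changes of 0.90, 0.84 and 0.84, and L1MdF_III, L1MdV_III, L1MdGf_I and L1_Mur1_orf2 did not pass (0.24, -0.16, 0.23 and 0.27). L1MdA_VII and L1MdFanc_II passed, but not with Leiden clusters.

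From round to elongating cells, 48 of 61 rows fell and 0 rose by edgeR (1 higher at an unadjusted p under 0.05), where 36.6% of all rows were called lower and 27.8% higher. The median log2 fold change was -1.26 for LINE-1 rows and -0.32 for all rows. DESeq2 called 37 lower and 1 higher. L1MdGf_II, a young row, had 41.3 and 37.5 CPM in round and 3.56 and 6.23 CPM in elongating cells (log2 fold change -2.19, SE 0.22, edgeR adjusted p = 2e-08). L1VL1_5end had 9.61 and 9.73 CPM, then 1.25 and 0.673 CPM (log2 fold change -2.52, SE 0.37, edgeR adjusted p = 3.8e-06). L1_Mur2_5end, the 5′ end of an old murid element, had 3.14 and 5.77 CPM, then 0.891 and 0 CPM (log2 fold change -2.56, SE 0.65, edgeR adjusted p = 0.0017). The values of these rows did not overlap between the classes. All of the 10 leading rows fell, from a log2 fold change of -0.92 for L1_Mur1_orf2 to -1.85 for L1MdTf_III. The 13 rows that did not pass included Lx2B2_3end, which rose in the step before, with a log2 fold change of 0.10 (SE 0.23).

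**Figure D4:**
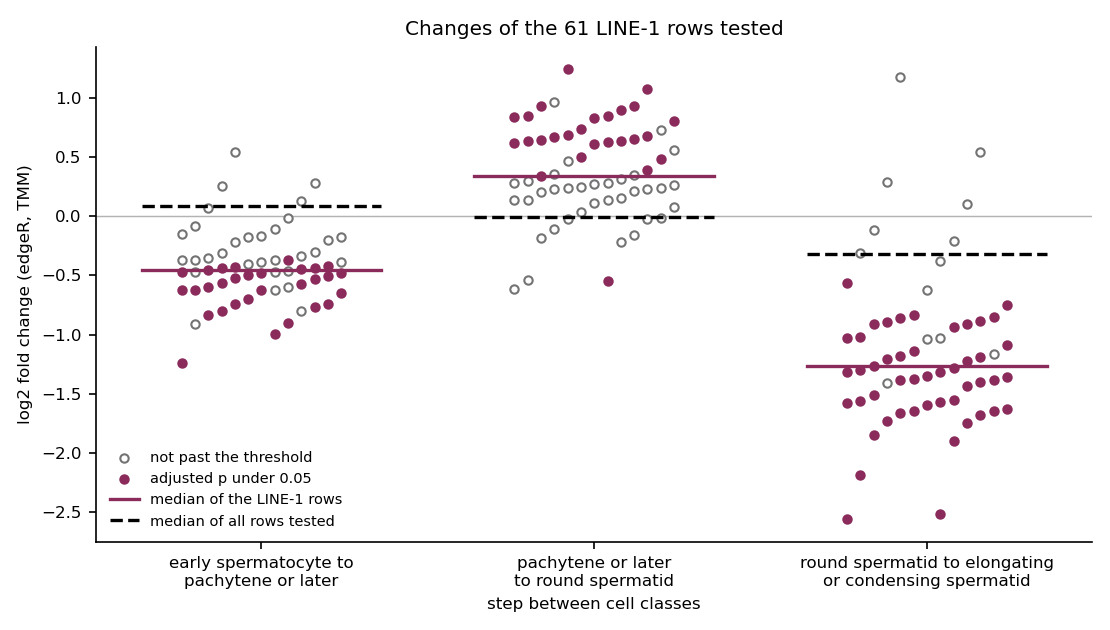
Log2 fold changes of the 61 LINE-1 rows tested in each of 3 steps between 4 cell classes, from edgeR with TMM scaling. Filled points passed an adjusted p of 0.05, solid lines are the medians of the LINE-1 rows (-0.46, 0.34 and -1.26) and dashed lines the medians of all 15079 rows tested (0.08, -0.01 and -0.32).

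The scaling moved these values, and the LINE-1 medians kept their direction whereas those of all rows did not. DESeq2's size factors shifted the median of the same 15079 rows by -0.24, 0.07 and 0.38 against TMM in the order of the steps. The medians of all these rows were then -0.16, 0.06 and 0.05 in place of 0.08, -0.01 and -0.32, and the LINE-1 medians were -0.68, 0.41 and -0.89. Among all rows, edgeR called 4020 higher and 3270 lower in the first step and 4188 and 5517 in the third, whereas DESeq2, run without the filter, called 2721 and 3428 in the first and 4916 and 3319 in the third. With the mouse as a block, edgeR called 0 LINE-1 rows higher and 39 lower in the first step, 33 and 1 in the second and 0 and 49 in the third. The share of all rows called with the block is not given here, so these counts have no background to compare with.

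A fit with the 6 clusters as separate groups, chosen after the clusters had been seen, placed the changes among 59 LINE-1 rows more closely. In the first step 0 rose (0 also at an unadjusted p under 0.05 and with DESeq2) and 40 fell (25.6% and 24.4% of all rows). From the pachytene to the Ssxb-high cluster 25 rose and 1 fell (31.7% and 30.8%), with L1MdTf_III at a log2 fold change of 0.92 (SE 0.14, edgeR adjusted p = 3.9e-06) and L1MdV_III at -0.17 (SE 0.12). From the Ssxb-high to the Ssxb-low cluster few rows passed, with 3 higher and 1 lower (25.7% and 20.2% of all rows). With the mouse as a block it was 4 higher and 7 lower, for which the share of all rows is not given here. The 3 that rose without the block were L1MdA_II, LX2B and Lx2B2_3end, and L1MdTf_I fell. L1MdA_II had 101 and 110 CPM in the Ssxb-high and 124 and 128 CPM in the Ssxb-low cluster (log2 fold change 0.51, SE 0.16, edgeR adjusted p = 0.011). From there to the RNA-rich cluster 2 rose, LX5b and Lx3B_3end, and 16 fell (23.4% and 21.0% of all rows), among them the 3 L1MdV rows and L1MdTf_III. From the RNA-rich to the RNA-poor cluster 0 rose (0 also at an unadjusted p under 0.05 and with DESeq2) and 51 of 59 fell (16.4% and 23.1% of all rows), with a median log2 fold change of -2.52.

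The mice differed in the LINE-1 share over all cells, with a ratio of mouse 2 to mouse 1 of 1.12, and part of this was in the cell makeup. The early cells gave 3.98% of the UMIs of mouse 1 and 7.99% of those of mouse 2, and the pachytene cells gave 38.0% and 24.6%. With the class levels of mouse 1 and the makeup of mouse 2 the level would be 3285 CPM, between the 3114 and 3474 CPM measured, and with the levels of mouse 2 and the makeup of mouse 1 it would be 3292 CPM. Within clusters the ratio was 1.16 in the early cells and 0.961 to 1.04 in the other 5 clusters. With 1 animal against 1 animal, these ratios compare 2 libraries.

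Of the 48 rows with at least 500 UMIs, 43 were higher in mouse 2 over all cells. For 33 the exact 95% interval of the ratio lay above 1. The median ratio of the 48 rows was 1.11, near the 1.12 of all LINE-1 UMIs. Such ratios over all cells include the cell makeup of the mice. By cluster, the ratio of all LINE-1 UMIs was 1.16 in early cells and 0.961 to 1.04 in the others. The share of all rows of the matrix with such intervals was not counted, so the 33 have no background to compare with. The highest ratios were 1.34 for LX4, 1.27 for Lx2A1_3end and 1.26 for L1_Mus2_3end. The whole interval lay below 1 for 3 rows. These were L1MdTf_II with a ratio of 0.669 (0.562 to 0.795), L1_MM with 0.70 (0.65 to 0.75) and L1MdTf_I with 0.776 (0.688 to 0.876). L1MdTf_III, of the same family as both L1MdTf rows, had a ratio of 1.21. The lower ratios of L1MdTf_II were found in the larger clusters too, at 0.520 in the pachytene and 0.595 in the Ssxb-high cluster.

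**Figure D5:**
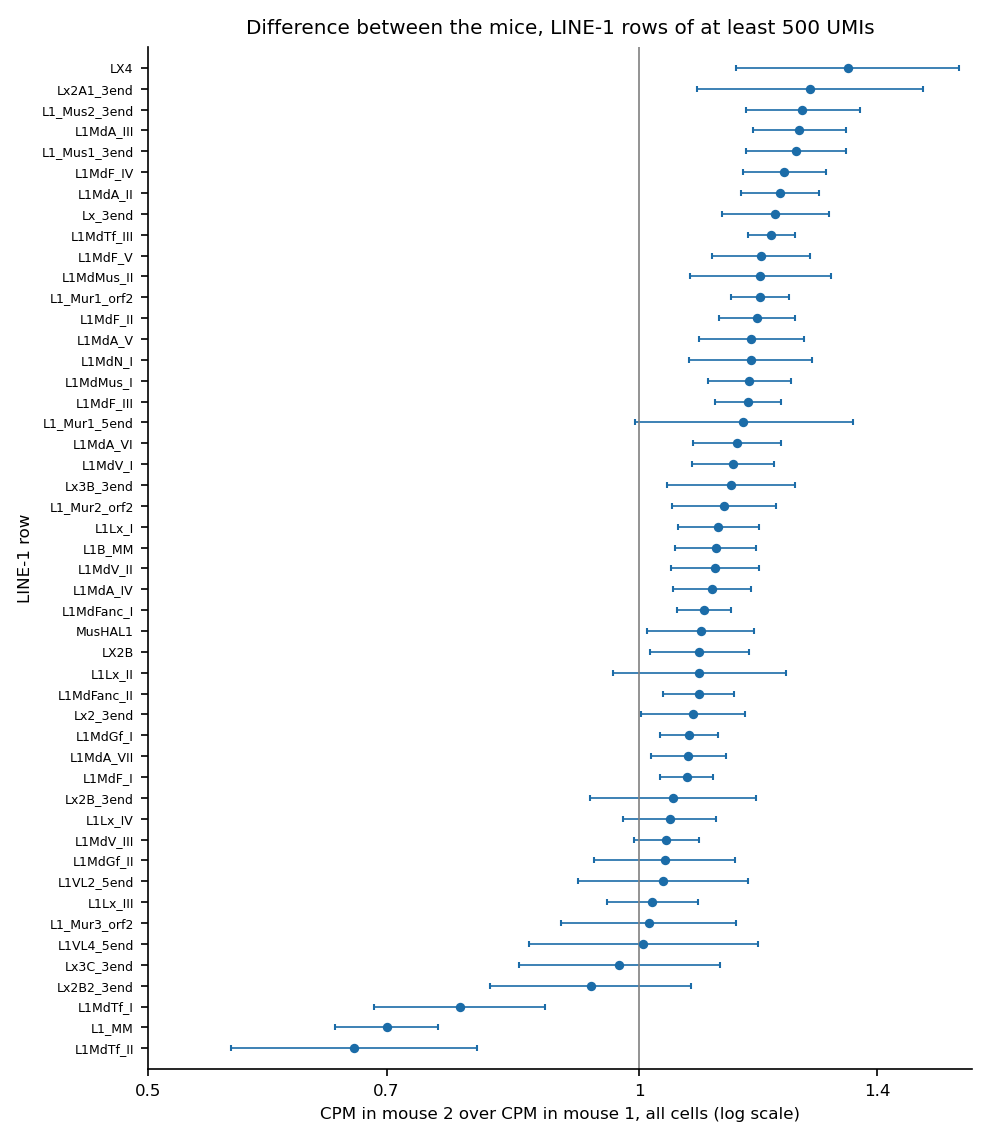
Ratio of CPM in mouse 2 to CPM in mouse 1 over all cells for the 48 LINE-1 rows with at least 500 UMIs, on a log axis with exact 95% intervals for counting error. Most rows lie between 1 and 1.34, and L1MdTf_II, L1_MM and L1MdTf_I lie below 1 with their intervals.

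Genes that act on LINE-1 were taken from a list of 51, all of which were found in the matrix, and 44 passed the filter on low counts. The 7 left out were Piwil4, Dnmt3c, Suv39h1, Ehmt1, Zc3hav1, Trex1 and Apobec3. In the first step, in which LINE-1 rows fell, 9 of the 44 rose and 23 fell, in the second 8 rose and 27 fell, and in the third 3 rose and 22 fell. With DESeq2 the counts were 5 and 23, 8 and 23, and 5 and 14, and without the Ssxb-high cluster 6 rose and 13 fell in the third step. Among all rows edgeR called 26.7% higher and 21.7% lower in the first step, and 36.6% and 33.0% in the second. In the third it called 27.8% and 36.6%. These edgeR shares are not the background of the DESeq2 counts. Among all rows DESeq2, as given above, called more lower than higher in the first step and more higher than lower in the third, the reverse of edgeR. Its share in the second step, and the shares without the Ssxb-high cluster, are not given here. The edgeR shares are also the background for the groups of these genes below. The groups are small, and some of their counts lie near the edgeR shares.

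Among 21 genes of the piRNA pathway, 4 rose and 12 fell in the first step, 5 rose and 14 fell in the second, and 1 rose and 13 fell in the third. Tdrd7 (chr4:45965334-46034761, GRCm38), a Tudor protein of the germ granules, had 54.1 and 71.4 CPM in early, 169 and 150 CPM in pachytene, 239 and 258 CPM in round and 14.3 and 19.0 CPM in elongating cells. It rose in the first and second steps and fell in the third (log2 fold change -3.09, SE 0.19, edgeR adjusted p = 9e-12). Tex15 (chr8:33516738-33585582), needed for piRNA-directed DNA methylation, had 9.16 and 3.30, then 3.73 and 2.82, then 74.2 and 87.2 CPM, and rose in the second step by a log2 fold change of 4.80 (SE 0.22, edgeR adjusted p = 6.3e-14). It fell in the third step, to 8.19 and 8.75 CPM (log2 fold change -2.44). Spocd1, a partner in the same methylation, had 0 UMIs in the early cells of both mice and 137 UMIs in the pachytene cells, at least 8.97-fold higher against a floor of 3 counts over both mice. Gtsf1 (chr15:103402405-103430470), a PIWI cofactor, rose in the third step with edgeR (log2 fold change 0.63, SE 0.17, edgeR adjusted p = 0.0023), while its CPM were lower, at 1098 and 1080, then 899 and 1026. It did not pass with Leiden clusters.

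Of 10 heterochromatin genes tested, 3 rose and 4 fell in the first step, 2 rose and 7 fell in the second, and 0 rose and 7 fell in the third. The partners of the HUSH complex, which silences LINE-1 in chromatin, went different ways. Mphosph8 (chr14:56668248-56697430) had 571 and 512 CPM in early, 262 and 235 CPM in pachytene cells and 14.8 and 13.3 CPM in round cells, and it fell in the second step (log2 fold change -3.94, SE 0.17, edgeR adjusted p = 1.8e-14). Pphln1 (chr15:93398350-93491510) had 22.0 and 8.67, then 17.2 and 13.4, then 354 and 399 CPM, and rose in that step (log2 fold change 4.81, SE 0.20, edgeR adjusted p = 1.6e-14). Fam208a (chr14:27428834-27483555) fell in all 3 steps, from 66.0 and 61.1 CPM to 1.07 and 2.02 CPM, and the third fall was lost without the Ssxb-high cluster. Suv39h2, a histone methyltransferase of the testis, rose in the second step from 2.97 and 4.83 CPM to 74.4 and 97.8 CPM (log2 fold change 4.70). Morc1, which is needed for the silencing of transposons in male germ cells, had 11.0 and 13.2 CPM in early and 1.25 and 0.669 CPM in pachytene cells (log2 fold change -3.25, edgeR adjusted p = 2.4e-06).

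Among 6 DNA methylation genes tested, 0 rose and 3 fell in the first step, 1 rose and 3 fell in the second, and 1 rose and 2 fell in the third. Dnmt1, the maintenance methyltransferase, had 27.5 and 23.5 CPM in early, 6.51 and 6.71 CPM in pachytene cells and 0.392 and 0.486 CPM in round cells. Dnmt3a rose in the third step from 0.392 and 0.347 CPM to 1.25 and 4.38 CPM (log2 fold change 3.70, SE 0.62, edgeR adjusted p = 2.4e-05), with 61 UMIs in all.

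Among 7 tested genes listed under restriction of LINE-1 RNA or protein, 2 rose and 4 fell in the first step. In the second 0 rose and 3 fell, and in the third 1 rose and 0 fell. Whether each of these genes restricts LINE-1 in these cells was not tested. Tex19.1 (chr11:121146143-121148319), which acts on LINE-1 ORF1 protein, had 40.3 and 33.4 CPM in early and 1.15 and 1.88 CPM in pachytene cells (log2 fold change -4.24, SE 0.31, edgeR adjusted p = 9.4e-10). Rnaseh2a, a subunit of RNase H2, rose in that step from 279 and 365 CPM to 919 and 938 CPM (log2 fold change 1.88). In the third step it was called higher at a log2 fold change of 0.40 (edgeR adjusted p = 0.049), while its CPM were lower, and the call was lost without the filter on low counts. Upf1, an RNA helicase of RNA decay, fell in the second step from 27.3 and 32.1 CPM to 2.35 and 1.81 CPM (log2 fold change -3.64). Mov10 and Adar were called in the first step on 84 and 18 UMIs in all, higher and lower respectively, and neither passed with DESeq2.

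The other repeat classes are given here side by side over the same clusters without a test. SINE rows had 6157 and 5152 CPM in the early, 2632 and 2378 CPM in the pachytene and 1182 and 1069 CPM in the Ssxb-high cluster, without the second peak of the LINE-1 rows. ERV2 rows had one, at 1601 and 2119, then 1189 and 1419, then 1862 and 1973 CPM. Between all neighbouring clusters they moved in the same direction as the LINE-1 rows in both mice. ERV1 rows had 318 and 373, then 329 and 330, then 316 and 328 CPM, and 133 and 145 CPM in the RNA-poor cluster. ERV3 rows had 590 and 622, then 358 and 375, then 366 and 360 CPM. In the RNA-poor cluster LINE-1 was at 231 and 226 CPM, SINE at 207 and 168 CPM and ERV2 at 477 and 514 CPM.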

How the data were processed

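The authors made the deposited UMI counts with Cell Ranger 2.0.0 from 3′ reads of 1 library per mouse, on repeat-masked GRCm38 with Ensembl annotation and RepBase sequences added, lowered the reads of the deeper library, and kept called cells. The counts are not normalized. All 2552 cells were kept, with 25 called as doublets. Cells were placed by K-means (K = 9, 10 components, seed 42, 10 restarts), named where 3 markers had 1.5 times the CPM of all cells. The members, lists and rules were chosen with earlier results of these data known. Named LINE-1 rows are the 10 with the most UMIs and, per step, the 3 largest rises and falls among those called with at least 100 UMIs; for regulators, the 3 largest called each way. UMIs were summed per mouse and class and tested with edgeR 4.0.16 (quasi-likelihood, TMM, filterByExpr), with DESeq2 1.42.0 as an alternative, after a test on simulated data. Sums of the same number come from 1 animal, and their deviations over 15079 rows correlated at 0.0347 to 0.229 in 6 pairs of classes. Regulator positions are from GENCODE for GRCm38. Python 3.11.15, scikit-learn 1.9.0, scanpy 1.11.5, scipy 1.17.1 and R 4.3.3 were used. The consensus sequences of the rows were not used here.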

Additional observations from a re-analysis of the deposited data

How the results depend on the processing

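With 2 mice the values rest on the difference between 2 animals, and depth limits the rows under 100 UMIs and the RNA-poor cluster most. The cause of a change was not tested. Of 151 values recomputed, 117 were labelled the same as the value reported. For levels, ratios and shares of cells this meant within the spread. For counts of rows or genes called it meant within 1.5 times. Some of these values could not move. With 2 mice the values of each mouse alone always lie within the SD, and K = 10 gave germ cell clusters of the same sizes. Leaving out the Ssxb-high cluster could not change the CPM ratio of the first step, which has no round cells in it. Clusters built with repeat rows had early and pachytene clusters of the same sizes, at 164 and 527 cells. The log2 CPM ratios of -0.82, 0.26 and -2.09 in the 3 steps became -0.14, -0.41 and -2.48 as mean UMIs per cell, so that the second step reversed. The medians per cell did not reverse in that step, at 77.5 and 71 in pachytene and 78 and 79 in round cells. With Leiden clusters the log2 CPM ratios were -0.71, 0.13 and -2.71. In steps 2 and 3 they were 0.26 and -1.89 with the total without protamine, transition protein, mitochondrial and poly-A rows, 0.12 (SD 0.17, n = 2) and -2.34 with cells thinned to 5000 UMIs, 0.11 (SD 0.16, n = 2) and -2.37 as means over cells, and 0.053 and -1.89 without the Ssxb-high cluster. Without the cells lowest in ribosomal protein mRNA the first and second were -0.96 and 0.37, and without the cells above 10000 LINE-1 CPM the second was 0.37. These last 3 settings were chosen after seeing the data. Each mouse alone gave -0.91 to -0.74, 0.25 to 0.26 and -2.18 to -1.996.

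The log2 ratio of mouse 2 to mouse 1 of 0.05 in pachytene cells reversed to -0.23 with thinned cells and to -0.23 as a mean over cells. In early cells it was 0.22, and 0.30 per cell, 0.15 with Leiden and 0.30 as a mean over cells. In round cells it was 0.04, and 0.18 per cell, 0.065 with Leiden, 0.014 thinned and 0.00036 as a mean over cells. In elongating cells it was 0.23, and 0.44, 0.53 and 0.28 per cell, with Leiden and as a mean over cells. In both clusters of this class the ratio itself was below 1, at 0.961 and 0.982, and the mice differed in the mix, with 88 RNA-rich and 280 RNA-poor cells in mouse 1 and 110 and 227 in mouse 2. Thinning left 99.1% of round and 66.2% of elongating cells with a LINE-1 UMI, and 65.3% of elongating cells had at least 2. Over all cells the level was 3114 and 3474 CPM for each mouse alone, and with 2 mice such values always lie within the SD. The other settings gave means of 3268 to 3425 CPM, also within the SD of 255.

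The 30 rows called in the first step became 15 without the filter on low counts and 13 with Leiden, and in the 4 classes the other total counts of LINE-1 rows called stayed within 1.5 times. The Leiden early group held a cluster that also scored for Sertoli cells. For the regulators the counts by direction moved further, from 9 higher to 5 in the first step and from 22 lower to 14 in the last with DESeq2, and from 3 higher and 22 lower to 6 and 13 in the last without the Ssxb-high cluster. The replicate block, which pairs the sums of 1 mouse, gave 39, 34 and 49 LINE-1 rows in the 3 steps and changed no direction. The shares of all rows called with it are not given here. Among 935 values of single named rows and genes, 41 lost and 54 gained a call and none that was called changed direction. Leaving out 1 mouse leaves no spread to test, so median log2 CPM ratios are given. For the LINE-1 rows these were -0.92 to -0.71, 0.13 to 0.15 and -2.14 to -1.99, and for the regulators -1.15 to -0.77, -1.30 to -1.10 and -1.46 to -1.27.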
